A study of Arabidopsis thaliana with 24 samples.

Results

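PYR1 and the PYL proteins (PYRABACTIN RESISTANCE 1 and PYR1-LIKE) are the intracellular receptors of the plant hormone abscisic acid (ABA). The 9 genes PYR1, PYL1, PYL2 and PYL4 to PYL9 were taken by gene identifier from a table of 27655 Arabidopsis thaliana genes. They are PYR1 (AT4G17870), PYL1 (AT5G46790) and PYL2 (AT2G26040) of subfamily III, PYL4 (AT2G38310), PYL5 (AT5G05440) and PYL6 (AT2G40330) of subfamily II, and PYL7 (AT4G01026), PYL8 (AT5G53160) and PYL9 (AT1G01360) of subfamily I. RNA-seq libraries came from whole rosettes of soil-grown wild-type Col-0 plants, 3 per group in 8 groups, 24 in all, and 1 library stands for 1 replicate. Plants grew in long days at 22 °C with nights at 18 °C, were moved to fresh soil at 2 weeks, were treated 14 days later and were harvested at midday. Control plants stayed at 22 °C, Salt plants received 150 mM NaCl, Mannitol plants received 200 mM mannitol and Salt_Mannitol plants received both in 1 solution, in each case 16 h before harvest. Heat plants spent the last 4 h in a different cabinet at 35 °C, and Salt_Heat, Mannitol_Heat and Salt_Mannitol_Heat plants had the matching solution 16 h before harvest and the same 4 h at 35 °C. Heat and the change of cabinet therefore cannot be told apart. No watering is recorded for the Control and Heat groups, so that in every comparison of a watered group with Control or Heat the solutes and the watering itself cannot be told apart. Plants given a solution are called watered here. Nothing in the labels tells if single or pooled plants made up a replicate, and the p-values measure only the spread between these samples.

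ABA accumulates in leaves that lose water and closes their stomata. A receptor that holds ABA folds a gate and a latch over it and then docks onto a clade A protein phosphatase 2C (PP2C), which it blocks, and this frees the SnRK2 kinases that activate the ABF transcription factors and ion channels. The receptors fall into subfamily III, whose members PYR1, PYL1 and PYL2 pair up with themselves when no ABA is present, and subfamilies II (PYL4 to PYL6) and I (PYL7 to PYL9), which are mostly single molecules that bind ABA more tightly and can inhibit some PP2Cs at low ABA.

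The libraries held 12.5 to 19.5 M counted reads. The first principal component of log2 CPM (counts per M reads) held 59.8% of the variance. The 4 rosette leaf markers together ranged from 17180 to 44950 TPM (transcripts per M, the deposited level, which is per transcript length). Flower markers summed to at most 0.506 TPM and seed markers to at most 0.725 TPM. Of 4 root markers, CASP1, IRT1 and TIP2;3 stayed at or below 1.45 TPM, while PYK10 lay between 83.2 and 183 TPM. Organelle transcripts took 0.0242% to 0.690% of reads, and 4 libraries exceeded 0.1% (Salt replicate 1 and replicate 2 of Mannitol, Salt_Mannitol and Mannitol_Heat).

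The upstream windows of 3 receptor genes are shown because these genes carry the results: PYL8 rose in heat, and PYL4 and PYL5 fell in Salt_Mannitol against Control. Each is the 300 bases before the gene start in RefSeq (assembly TAIR10.1), 5′ to 3′, on the plus strand: chr5:21560301-21560600 for PYL8, chr2:16049618-16049917 for PYL4 and chr5:1608688-1608987 for PYL5. Capitals mark matches to ACGTG, the core of the ABA-responsive element, or to GAANNTTC, the core of the heat shock element, each searched on both strands. The palindromic overlap CACGTG counts as 2 matches of the first motif. 
PYL8: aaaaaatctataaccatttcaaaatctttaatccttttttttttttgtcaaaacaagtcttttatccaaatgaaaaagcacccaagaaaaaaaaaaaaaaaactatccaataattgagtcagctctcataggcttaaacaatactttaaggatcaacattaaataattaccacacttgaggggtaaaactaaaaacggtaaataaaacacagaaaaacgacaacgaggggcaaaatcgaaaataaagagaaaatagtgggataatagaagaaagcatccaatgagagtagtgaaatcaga 
PYL4: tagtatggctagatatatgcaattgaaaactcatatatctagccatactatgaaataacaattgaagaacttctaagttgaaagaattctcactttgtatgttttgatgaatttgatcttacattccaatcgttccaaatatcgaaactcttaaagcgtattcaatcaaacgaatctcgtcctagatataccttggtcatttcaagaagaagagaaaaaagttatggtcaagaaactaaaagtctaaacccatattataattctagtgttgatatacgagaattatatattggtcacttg 
PYL5: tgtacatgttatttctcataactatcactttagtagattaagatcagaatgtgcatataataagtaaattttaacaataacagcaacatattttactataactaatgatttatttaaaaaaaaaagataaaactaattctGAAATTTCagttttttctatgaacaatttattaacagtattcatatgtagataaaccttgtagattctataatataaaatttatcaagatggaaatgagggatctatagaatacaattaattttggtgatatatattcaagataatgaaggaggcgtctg

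The PYL5 window held 1 match to GAANNTTC, 160 to 153 bases before the gene start, while the PYL8 and PYL4 windows held neither motif. Among the 8 receptors whose windows were searched, ACGTG was found in 1 (PYL7, with 4 matches) and GAANNTTC in 1. Most of the PYL7 window lies within the neighbouring gene AT4G01023 (chr4:445422-446948). So do its matches, except the one at 10 to 6 bases before the gene start. Of 27443 windows of the same length over the whole genome, 25.6% held ACGTG and 11.5% held GAANNTTC. A match is only a run of letters and no match says nothing about binding elsewhere.

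The coding sequences of the receptors ran from 564 bases (PYL9) to 666 bases (PYL1). Identity of coding bases was 69.9% to 80.3% within subfamily I, 66.8% to 69.0% within II, 58.9% to 75.2% within III and 56.6% to 64.8% over the 27 pairs from different subfamilies. PYR1, PYL2, PYL4, PYL5 and PYL6 are annotated with a single exon, whereas PYL7 and PYL9 have 3. PYL7 and PYL9 had 4 runs of 31 bases in common, and no other receptor transcript shared a run of that length with another gene.

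In control rosettes the most abundant receptor transcripts were PYR1 at 35.3 ± 3.13 TPM (SD, n = 3 here and below) and PYL7 at 34.8 ± 2.22 TPM, whose library ranges overlapped. PYL8 followed at 27.3 ± 2.77 TPM, PYL1 at 21.7 ± 1.958 TPM, PYL4 at 18.2 ± 3.02 TPM and PYL9 at 17.9 ± 1.23 TPM. The ranges of PYL1 and PYL4 overlapped, as did those of PYL4 and PYL9. PYL5 (4.34 ± 0.477 TPM), PYL2 (2.62 ± 0.399 TPM) and PYL6 (0.615 ± 0.254 TPM) were the rarest, each separated from the next. In all 4 heated groups this order was different at its head: PYL8 was first and PYL7 second, with ranges that did not overlap, and PYR1 came next. The other 5 genes of the family had almost no reads: PYL11 had 11, PYL3 had 5, PYL12 had 2 and PYL10 and PYL13 had 0 over the 24 libraries, so none was tested.

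**Figure D1:**
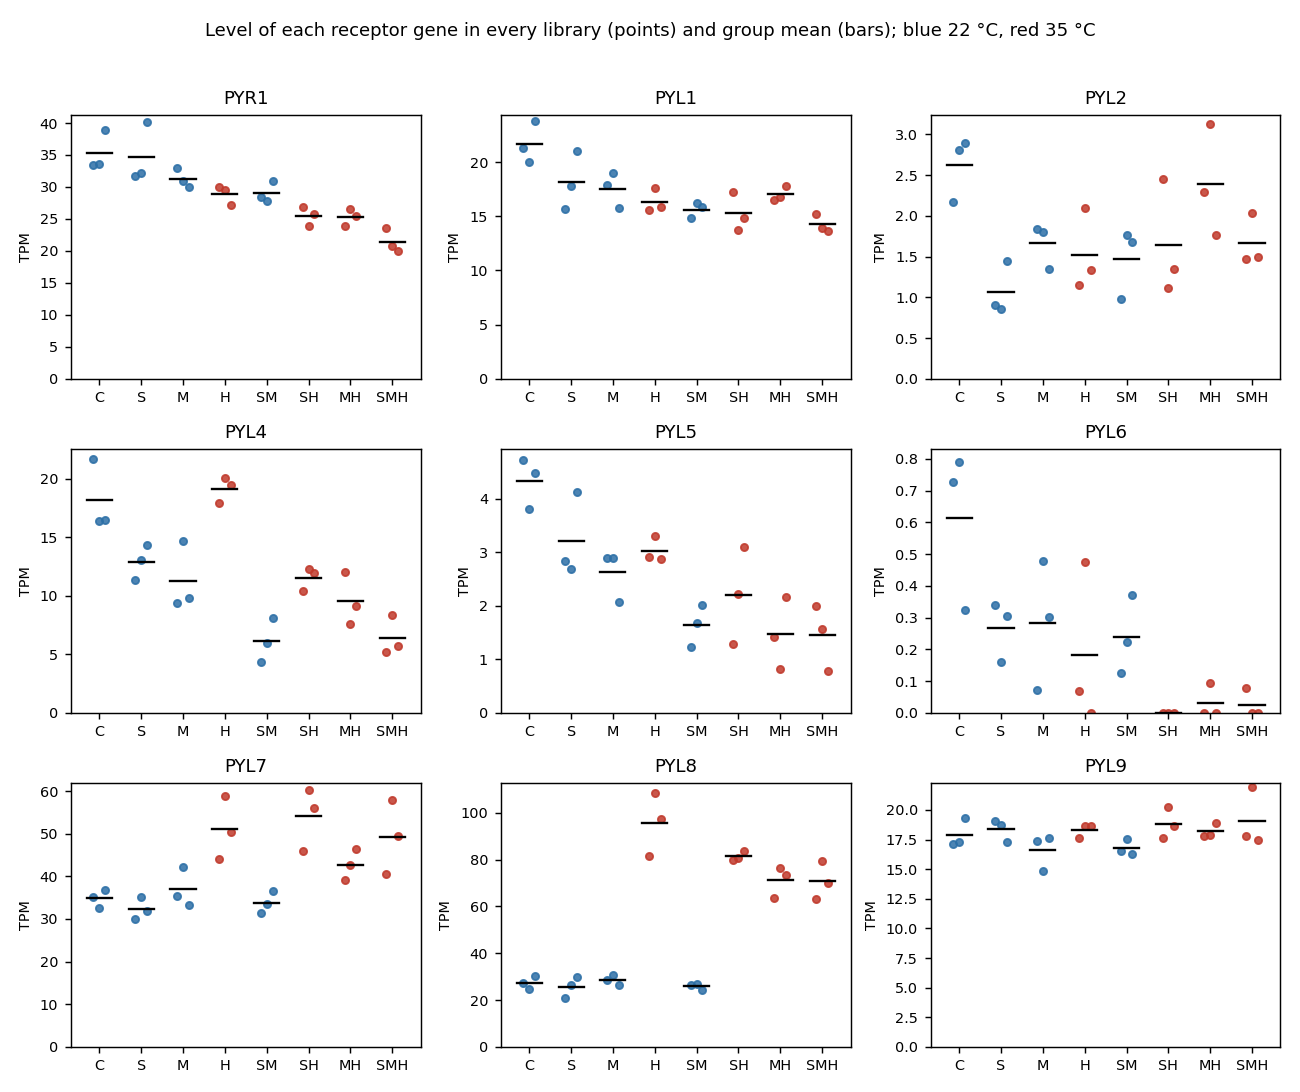
Level of each of the 9 receptor genes in TPM (vertical axes, each from 0) in every library (points) with the mean of 3 libraries (bars), for Control (C), Salt (S), Mannitol (M), Heat (H) and their combinations; blue is 22 °C and red is 35 °C. PYL8 lies between 20.8 and 30.8 TPM in every unheated library and between 63.1 and 108 TPM in every heated one, while PYL4 is lowest where salt and mannitol were combined.

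PYL8, a subfamily I receptor known for its part in lateral root growth, had the largest log2 change in heat among the tested receptors. The gene lies at chr5:21560601-21562709 on the plus strand. The 3 control libraries held 27.3, 24.6 and 30.2 TPM and the 3 Heat libraries 81.6, 108 and 97.2 TPM. Every Heat library lay far above every control library. The change was 1.82 ± 0.12 on the log2 scale (SE of the edgeR fit, here and below), a 3.54-fold rise (adjusted p = 7.9e-12, edgeR quasi-likelihood test with Benjamini-Hochberg adjustment over 20027 genes). In that comparison 62.6% of tested genes were called at an adjusted p under 0.05, and 5 of the 8 receptors that passed the filter on low counts were called.

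The same step was seen in plants that had been watered with a solute, on libraries that the comparison above does not use. Salt libraries held 20.8, 26.6 and 29.95 TPM of PYL8 and Salt_Heat libraries 79.8, 80.9 and 83.5 TPM. Mannitol libraries held 28.7, 30.8 and 26.6 TPM and Mannitol_Heat libraries 63.8, 76.3 and 73.4 TPM. Salt_Mannitol libraries held 26.4, 26.9 and 24.3 TPM and Salt_Mannitol_Heat libraries 63.1, 79.5 and 70.1 TPM. In each of these 3 pairs of groups all heated libraries lay above all unheated ones. PYL8 rose by 1.68 ± 0.12 after salt, 1.32 ± 0.12 after mannitol and 1.47 ± 0.12 after both, so that it was called in 4 of 4 comparisons, with 2.49-fold to 3.54-fold rises. Of the 9 receptors PYL8 was the only one whose 12 heated libraries (63.1 to 108 TPM, median 79.7) did not overlap its 12 unheated ones (20.8 to 30.8 TPM, median 26.8). In bulk tissue a change in the number of cells of a type and a change in RNA per cell cannot be told apart.

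Heated plants that had received mannitol held less PYL8 than plants that were only heated. The difference was -0.44 ± 0.11 for Mannitol_Heat against Heat (adjusted p = 0.013) and -0.45 ± 0.11 for Salt_Mannitol_Heat against Heat (adjusted p = 0.0054), where 12.3% and 23.1% of tested genes were called. Without Heat replicate 2 or without Mannitol_Heat replicate 1 the former lost its call (adjusted p = 0.092 and 0.069), and it also did when only those groups were fitted (0.097). For Salt_Heat against Heat the difference was -0.24 ± 0.11 (adjusted p = 0.34). The heat effect in mannitol-watered plants differed from that in plants without solutes by -0.50 ± 0.16 on the log2 scale, which missed the threshold (adjusted p = 0.056). Over 22 settings, the main fit included, its adjusted p ran from 0.017 to 0.17. It was called with DESeq2, with library totals alone, with the replicate number as a block, and without Heat replicate 1 (0.017) or Mannitol_Heat replicate 2 (0.048). At 22 °C PYL8 did not pass the test in any comparison, with values from -0.17 ± 0.12 (Salt_Mannitol against Mannitol) to 0.06 ± 0.12 (Mannitol against Control).

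PYL7, a second subfamily I receptor, also rose in heat, by less. Its levels were 35.1, 32.5 and 36.9 TPM in Control and 44.0, 58.8 and 50.5 TPM in Heat, with no overlap. PYL7 rose by 0.57 ± 0.13 in Heat against Control (adjusted p = 0.00051), by 0.76 ± 0.13 in Salt_Heat against Salt (2.7e-05) and by 0.57 ± 0.13 in Salt_Mannitol_Heat against Salt_Mannitol (0.00061). In Mannitol_Heat against Mannitol the value was 0.22 ± 0.13 and did not pass (adjusted p = 0.14), and Mannitol replicate 2, at 42.2 TPM, lay within the Mannitol_Heat range of 39.1 to 46.5 TPM. Without that library PYL7 was called there (adjusted p = 0.047). The difference in heat effect between mannitol-watered plants and plants without solutes was -0.35 ± 0.18 (adjusted p = 0.23), so the heat effects were not shown to differ. Against Control, Mannitol_Heat gave 0.30 ± 0.13 (adjusted p = 0.043), which was lost without Control replicate 1 (0.085), 2 (0.14) or 3 (0.052) and without Mannitol_Heat replicate 2 (0.078) or 3 (0.16). That call was also lost with limma (0.057) and without the 4 libraries of high organelle share (0.090).

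The PYL7 values carry a limit of the locus. PYL7 (chr4:446978-448511, plus strand) overlaps AT4G01030 (chr4:447941-450642, minus strand), and 44.7% of its 31-base words also occur in that gene. No source used here says that strand was recorded, so reads from the shared stretch cannot be told apart. AT4G01030 itself stood at 1.23 to 2.35 TPM, with 68 to 138 reads per library. It rose in Salt_Heat against Salt (0.72 ± 0.12), Mannitol_Heat against Mannitol (0.52 ± 0.12) and Salt_Mannitol_Heat against Salt_Mannitol (0.53 ± 0.12), and its value in Heat against Control was 0.10 ± 0.12 (adjusted p = 0.47). Its part in the PYL7 result was not tested.

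PYL9, the remaining member of subfamily I, which is linked to leaf senescence under drought, had a narrow range over the series. Its 24 libraries ranged from 14.9 to 21.9 TPM. The ranges of all 7 neighbouring pairs in the order of groups overlapped, as they also did for PYL1, PYL2, PYL5, PYL6 and PYL7. PYL9 (chr1:141870-143261) passed the test in 0 of 23 comparisons in edgeR, DESeq2 and limma, with an unadjusted edgeR p under 0.05 in 1 of them. Its extreme values were -0.15 ± 0.09 (Salt_Mannitol against Salt, adjusted p = 0.30) and 0.20 ± 0.09 (Salt_Mannitol_Heat against Salt_Mannitol, adjusted p = 0.069). The latter was called with library totals alone (0.26, adjusted p = 0.023) and also without replicate 1 (0.049) or replicate 3 (0.038) of Salt_Mannitol_Heat. Its adjusted p over 16 settings, the main fit included, ran from 0.023 to 0.42. Salt_Mannitol_Heat against Control was also called with library totals alone (0.26, adjusted p = 0.021). In Heat against Control the value was 0.05 ± 0.09, with a 95% interval from -0.14 to 0.23 on the log2 scale.

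**Figure D2:**
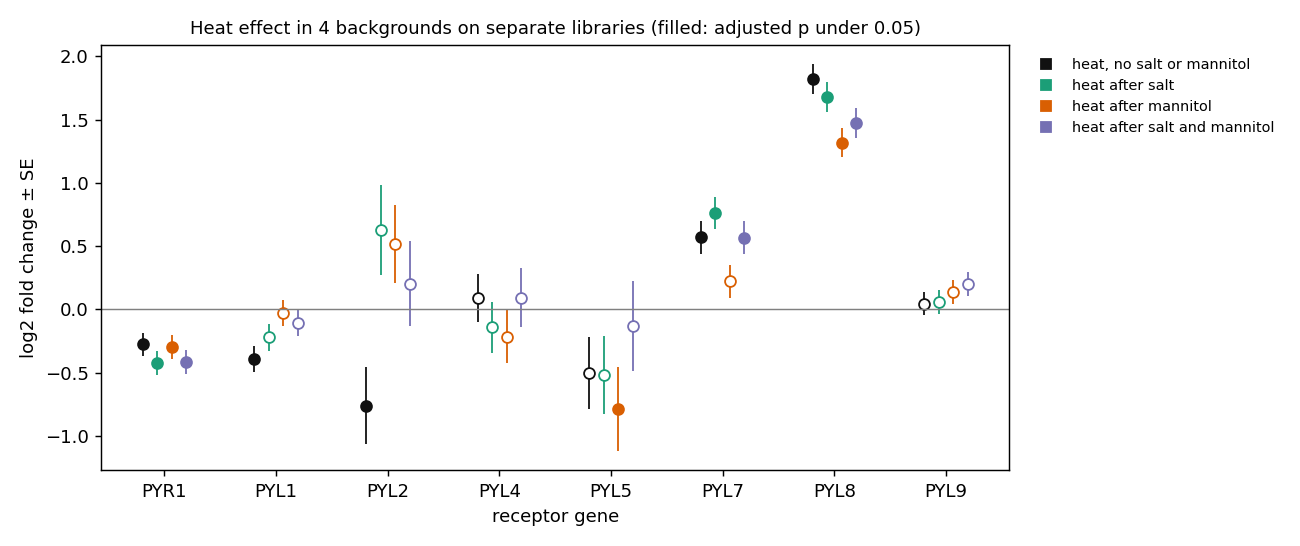
Log2 fold change of each tested receptor in heat (vertical axis, ± SE of the fit) for 4 pairs of groups that use separate libraries; filled points have an adjusted p under 0.05. PYL8 lies between 1.32 and 1.82 in all 4 pairs, PYR1 between -0.42 and -0.28 in all 4, and PYL9 between 0.05 and 0.20.

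In subfamily III, PYR1 fell with heat in all 4 pairs of groups. PYR1 (chr4:9928587-9929875) is the receptor through which the family was found with the synthetic agonist pyrabactin. Control libraries held 33.5, 33.6 and 39.0 TPM and Heat libraries 29.95, 29.5 and 27.1 TPM, without overlap. Salt libraries held 31.7, 32.2 and 40.2 TPM against 26.8, 23.8 and 25.8 TPM in Salt_Heat. The log2 change of PYR1 was -0.28 ± 0.09 in Heat against Control, -0.42 ± 0.09 after salt, -0.30 ± 0.09 after mannitol and -0.41 ± 0.09 after both solutes (adjusted p between 0.00046 and 0.011). The comparison without solutes lost its call without Control replicate 3 (adjusted p = 0.073) or Heat replicate 3 (0.055). In the heat comparisons after salt, mannitol and both solutes, 59.1%, 61% and 59.9% of tested genes were called and 3 receptors were called in each.

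The lowest PYR1 level was that of the 3 stresses combined. Salt_Mannitol_Heat libraries held 23.6, 20.7 and 20.1 TPM, all below every library of Control, Salt, Mannitol, Heat and Salt_Mannitol and of every other heated group. The log2 change was -0.72 ± 0.09 against Control (adjusted p = 5.9e-07) and -0.44 ± 0.09 against Heat (adjusted p = 0.0020). Salt_Mannitol against Control gave -0.31 ± 0.09 (adjusted p = 0.012), a call that was lost without Control replicate 3 (0.099), without Salt_Mannitol replicate 1 (0.051), with library totals alone (0.098) and without the 4 libraries of high organelle share (0.052). Salt_Mannitol against Salt gave -0.27 ± 0.09 (adjusted p = 0.036), lost without Salt replicate 3 (0.29) and without Salt_Mannitol replicate 1 (0.12) or 2 (0.11). The call was also lost with DESeq2 (0.053), with limma (0.056), with those groups fitted alone (0.050) and without the 4 libraries of high organelle share (0.067).

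PYL1, whose coding sequence is 75.2% identical to that of PYR1, was highest in Control at 21.3, 19.98 and 23.8 TPM. Heat libraries held 15.5, 17.6 and 15.8 TPM, all lower. Against Control its log2 change was -0.40 ± 0.10 in Heat (adjusted p = 0.0020), -0.50 ± 0.10 in Salt_Mannitol (0.00085) and -0.60 ± 0.11 in Salt_Mannitol_Heat (3.0e-05). Salt_Heat (-0.49 ± 0.10) and Mannitol_Heat (-0.34 ± 0.10) were also called lower, the latter not with library totals alone (adjusted p = 0.071). PYL1 was called lower in 6 of 7 comparisons with Control. Salt, at -0.26 ± 0.10, was called only without Salt replicate 3 (0.039). Against its own watered control the heat value did not pass in any of the 3 pairs, from -0.22 ± 0.11 after salt (adjusted p = 0.077) to -0.03 ± 0.10 after mannitol (0.83). The value after salt was called with library totals alone (0.049), with limma (0.049), without Salt replicate 1 (0.018), without Salt_Heat replicate 1 (0.022) and without the 4 libraries of high organelle share (0.023). The difference between the heat effects with and without mannitol was 0.37 ± 0.15 (adjusted p = 0.12). The fall in Mannitol against Control, -0.31 ± 0.10 (adjusted p = 0.031), lost its call without Control replicate 3 (0.15), without Mannitol replicate 3 (0.16), with library totals alone (0.12) and with those groups fitted alone (0.070).

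PYL2 was counted from 9 to 33 reads per library and its values are correspondingly loose. The receptor is known to act in guard cells. Control held 2.16, 2.81 and 2.89 TPM and Salt 0.906, 0.854 and 1.45 TPM, so the groups did not overlap. PYL2 fell by 1.29 ± 0.33 in Salt against Control (adjusted p = 0.014), the only receptor called there, where 11% of tested genes were called. The call was lost without Control replicate 2 (adjusted p = 0.051) or 3 (0.059), without Salt replicate 1 (0.060) or 2 (0.070), and without the 4 libraries of high organelle share (0.066). PYL2 was also called lower in Heat (-0.76 ± 0.31, adjusted p = 0.034) and in Salt_Mannitol (-0.87 ± 0.31, adjusted p = 0.035) against Control. The Heat call was lost without Control replicate 2 (0.092) or 3 (0.089) and without Heat replicate 1 (0.13) or 3 (0.10). The Salt_Mannitol call was lost without Control replicate 2 (0.095) or 3 (0.11) and without Salt_Mannitol replicate 1 (0.19). Both were lost with DESeq2 (0.054 and 0.061) and with library totals alone (0.050 and 0.058).

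In watered plants the heat values of PYL2 were positive, 0.63 ± 0.36 after salt, 0.52 ± 0.31 after mannitol and 0.20 ± 0.33 after both, and did not pass. The difference in heat effect was 1.39 ± 0.47 for salt (adjusted p = 0.13) and 1.28 ± 0.43 for mannitol (adjusted p = 0.066). The mannitol term was called without Heat replicate 2 or Mannitol_Heat replicate 3.

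In subfamily II, PYL4 was lowest where both solutes were given. PYL4 (chr2:16049918-16051356) is a single-molecule receptor known from stomatal ABA and CO2 responses. Its control libraries held 21.7, 16.4 and 16.5 TPM, Salt 11.3, 13.1 and 14.4 TPM, Mannitol 9.35, 14.7 and 9.80 TPM, and Salt_Mannitol 4.35, 5.997 and 8.08 TPM. All 9 watered libraries lay below all controls, and the combination lay below every library of either solute alone. PYL4 fell by 1.60 ± 0.21 in Salt_Mannitol against Control, 3.03-fold (adjusted p = 1.2e-05). Of the 8 tested receptors 5 were called in that comparison, all lower, against 32.6% of tested genes called and 17.2% called lower. In Mannitol against Control, with 23.6% of tested genes called and 2 receptors, PYL4 gave -0.69 ± 0.20 (adjusted p = 0.012), and in Salt against Control -0.50 ± 0.20 (adjusted p = 0.11). The mannitol call was lost without Control replicate 1 (0.067) and without Mannitol replicate 1 (0.051) or 3 (0.068), and salt was called only with those groups fitted alone (0.030).

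At 35 °C PYL4 was also lower with the solutes than without. Heat libraries held 17.9, 20.1 and 19.4 TPM, Salt_Heat 10.4, 12.3 and 11.9 TPM, Mannitol_Heat 12.0, 7.61 and 9.14 TPM, and Salt_Mannitol_Heat 5.19, 8.34 and 5.74 TPM. The 9 libraries with a solute lay below all 3 Heat libraries, but Salt_Mannitol_Heat replicate 2 lay above Mannitol_Heat replicate 2. Against Heat, the log2 change of PYL4 was -0.999 ± 0.20 in Mannitol_Heat (adjusted p = 0.0034) and -1.59 ± 0.21 in Salt_Mannitol_Heat (3.3e-05). Against Control, Salt_Heat gave -0.64 ± 0.20 (adjusted p = 0.0074), lost without Control replicate 1 (0.051). Against Heat, Salt_Heat gave -0.73 ± 0.20 and did not pass (adjusted p = 0.079), in a comparison where 1.03% of tested genes and 0 receptors were called in edgeR. There 2 receptors had an unadjusted p under 0.05, DESeq2 called 1 (PYL4, adjusted p = 0.031, over a range of 0.028 to 0.27 among the alternatives) and limma called 0. Heat by itself did not move PYL4 past the test in any pair, with values from -0.22 ± 0.21 after mannitol to 0.09 ± 0.23 after both solutes. The interaction of the combined solutes with heat was 0.00 ± 0.29, with a 95% interval from -0.57 to 0.58.

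The comparisons of watered with watered plants bear on PYL4 as well. PYL4 fell by 1.097 ± 0.22 in Salt_Mannitol against Salt (adjusted p = 0.00087), where 21.2% of tested genes and 3 receptors were called. Against Mannitol the change was -0.90 ± 0.22 (adjusted p = 0.0084), the only receptor called, where 13.4% of tested genes were. At 35 °C the change in Salt_Mannitol_Heat against Salt_Heat was -0.86 ± 0.22 (adjusted p = 0.011), again the only receptor, where 17.2% of tested genes were called. The value against Mannitol_Heat was -0.60 ± 0.23 and did not pass (adjusted p = 0.13, and 0.046 without the 4 libraries of high organelle share). The call against Mannitol was lost without Mannitol replicate 2 (0.073), without Salt_Mannitol replicate 1 (0.075), without the 4 libraries of high organelle share (0.11) and with those groups fitted alone (0.060), and the call against Salt_Heat without Salt_Mannitol_Heat replicate 1 (0.074). Salt_Mannitol_Heat against Mannitol_Heat, Salt against Mannitol and Salt_Heat against Mannitol_Heat called 0 receptors in edgeR, DESeq2 and limma, with 3, 0 and 1 at an unadjusted p under 0.05, and 2.62%, 22.2% and 3.01% of tested genes called.

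PYL5 (chr5:1608988-1610527), the other tested receptor of subfamily II, was counted from 8 to 60 reads per library and fell where both solutes were given. Control held 4.73, 3.81 and 4.48 TPM and Salt_Mannitol 1.24, 1.68 and 2.02 TPM, without overlap. Against Control its log2 change was -1.43 ± 0.31 in Salt_Mannitol (adjusted p = 0.0011), -1.52 ± 0.32 in Mannitol_Heat (0.00023) and -1.56 ± 0.32 in Salt_Mannitol_Heat (0.00018). With 1 solute at 22 °C it did not pass, at -0.44 ± 0.29 in Salt (adjusted p = 0.36) and -0.73 ± 0.29 in Mannitol (0.067, and 0.036 with those groups fitted alone), and Salt replicate 3, at 4.12 TPM, lay above Control replicate 2. In Mannitol_Heat and Salt_Mannitol_Heat against Control, 64.7% and 65.7% of tested genes were called, and 6 receptors in each. In Salt_Heat against Control 6 receptors were called as well, with 63.2% of tested genes. Salt_Heat gave -0.96 ± 0.30 for PYL5 (adjusted p = 0.0078), lost without Salt_Heat replicate 1 (0.060). Salt_Mannitol against Salt gave -0.99 ± 0.32 (adjusted p = 0.028), a call lost without Salt replicate 3 (0.16), Salt_Mannitol replicate 1 (0.14) or 2 (0.062), or the 4 libraries of high organelle share (0.054). In heat comparisons PYL5 was called in 1 of 4, Mannitol_Heat against Mannitol (-0.79 ± 0.33, adjusted p = 0.042). That call was lost without replicate 1 or 2 of Mannitol (0.10 and 0.11) and of Mannitol_Heat (0.10 and 0.19). It was also lost without the 4 libraries of high organelle share (0.35) and with those groups fitted alone (0.072). The other 3 heat values of PYL5 were negative and did not pass, though Salt_Heat against Salt was called without Salt_Heat replicate 3 (0.040). Against Heat, PYL5 was at -0.46 ± 0.31 in Salt_Heat and did not pass (adjusted p = 0.55), at -1.02 ± 0.33 in Mannitol_Heat (0.042) and at -1.06 ± 0.33 in Salt_Mannitol_Heat (0.023). The Mannitol_Heat call was lost without Heat replicate 1 (0.054), 2 (0.13) or 3 (0.065) and without Mannitol_Heat replicate 1 (0.11) or 2 (0.15). It was also lost with those groups fitted alone (0.12) and without the 4 libraries of high organelle share (0.18). The Salt_Mannitol_Heat call was lost without Heat replicate 2 (0.060) or Salt_Mannitol_Heat replicate 2 (0.052) or 3 (0.11). Over the 24 libraries the log2 CPM values of PYL4 and PYL5 correlated at r = 0.76, and those of PYL7 and PYL8 at r = 0.90. These are descriptions over libraries that share treatments.

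Marker sums of guard cells, roots and leaves also differed between the groups. The summed level of KAT1, MYB60, HT1 and SLAC1 was 23.7 to 28.1 TPM in Control, 17.1 to 18.0 in Salt, 16.3 to 18.0 in Mannitol and 12.4 to 14.9 in Salt_Mannitol. At 35 °C it was 18.6 to 21.5 TPM in Heat, 16.4 to 18.7 in Salt_Heat, 13.8 to 16.5 in Mannitol_Heat and 12.6 to 13.6 in Salt_Mannitol_Heat. As with PYL4 at 22 °C, every watered library lay below every control library and every Salt_Mannitol library below every Salt and Mannitol library, while Salt and Mannitol overlapped. Unlike PYL4, the sum was also lower in Heat than in Control. The root marker sum, nearly all PYK10, was 130.6 to 180.2 TPM in Control, 90.7 to 123 in Salt, 114 to 121 in Mannitol and 84.3 to 125 in Salt_Mannitol, so it too was lower in all watered libraries at 22 °C. In Heat it was 151.3 to 184.1 TPM, and in Salt_Heat, Mannitol_Heat and Salt_Mannitol_Heat 128 to 153.9, 115.7 to 130.2 and 127.3 to 137.3 TPM. The rosette leaf marker sum was 38690 to 44950 TPM in Control, 22220 to 24540 in Heat and 26550 to 34630 in the watered groups at 22 °C. In the other heated groups it was 17180 to 24540 TPM. The part of these cell types in the PYL4 and PYL5 results was not tested, nor was that of leaf cells in the heat results.

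**Figure D3:**
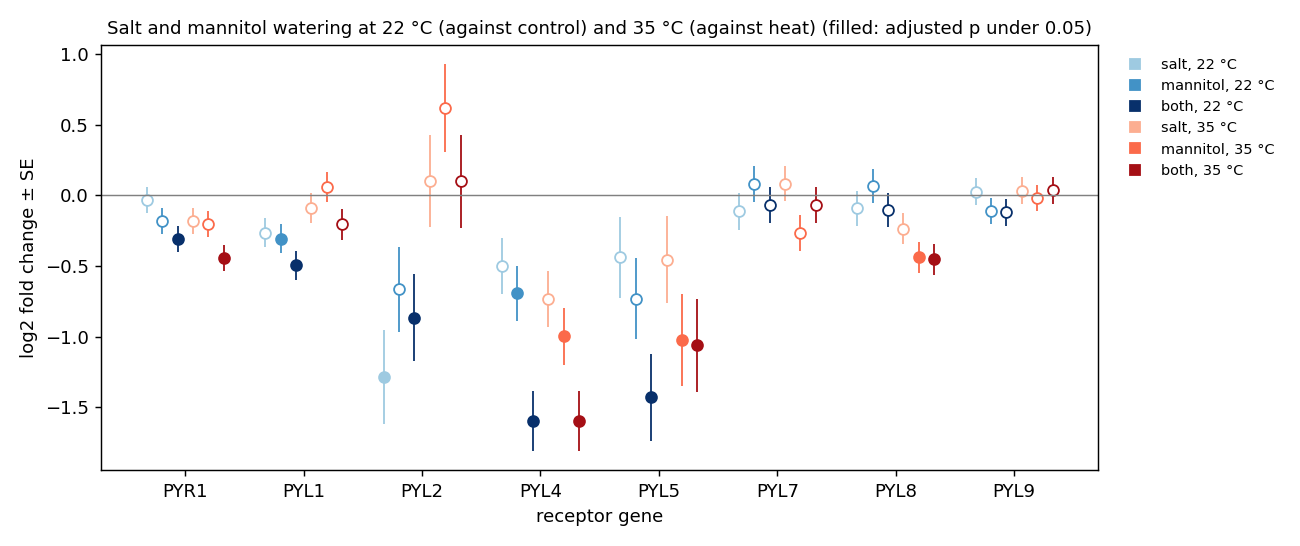
Log2 fold change of each tested receptor (vertical axis, ± SE of the fit) in plants given salt, mannitol or both, against Control at 22 °C (blue) and against Heat at 35 °C (red); filled points have an adjusted p under 0.05. PYL4 lies at -1.60 and -1.59 for the combined solutes at 22 °C and 35 °C, while PYL9 lies between -0.12 and 0.04.

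PYL6, a receptor that binds the jasmonate regulator MYC2, had too few reads to enter the test. Its reads were 10, 11 and 4 in Control, 4, 2 and 4 in Salt, 1, 7 and 5 in Mannitol and 2, 3 and 5 in Salt_Mannitol. Heat had 1, 7 and 0, Mannitol_Heat 0, 1 and 0, Salt_Mannitol_Heat 1, 0 and 0, and Salt_Heat none. All 12 unheated libraries held a read (58 in all), while 4 of 12 heated ones did (10 in all). For Salt_Heat, 0 of 45334908 reads allow up to 0.0662 reads per M (3 reads over the group, counting error only). The observed Control value of 0.483 reads per M was 7.30 times that limit. This ratio leaves out the counting error of Control and the spread between replicates, so it is not a lower bound. When no filter was applied, edgeR called PYL6 lower in Salt_Heat, Mannitol_Heat and Salt_Mannitol_Heat against Control (adjusted p = 0.00056, 0.0021 and 0.0022), in Salt_Heat against Salt (0.015) and in Mannitol_Heat against Mannitol (0.043). It did not call PYL6 in Heat against Control (0.053), in Salt_Mannitol_Heat against Salt_Mannitol (0.086), or in Salt, Mannitol and Salt_Mannitol against Control (0.35, 0.29 and 0.16).

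Whether solutes changed the response to heat was asked with the interaction terms of the fit. For salt, mannitol and both together with heat, and for salt with mannitol, 0 of the 8 tested receptors passed in edgeR, where 1.4%, 8.78%, 5.58% and 6.6% of tested genes did. At an unadjusted p under 0.05 the counts were 1, 3, 2 and 1. DESeq2 called 0, 1, 0 and 0 (PYL8 for mannitol) and limma on log2(TPM + 1) called 0 in each. The 95% intervals for PYR1 ran from -0.40 to 0.11 for salt with heat and from -0.28 to 0.23 for mannitol with heat, on the log2 scale. No watering is recorded for Control, so an effect of watering in these terms cannot be told apart from one of the solutes.

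The sum over the 9 receptors was higher in every heated library than in the unheated libraries with the same solute. Summed TPM was 163 ± 10.8 in Control and 234 ± 24.01 in Heat, 147 ± 14.0 in Salt and 211 ± 7.72 in Salt_Heat, 147 ± 10.4 in Mannitol and 188 ± 9.83 in Mannitol_Heat, and 131 ± 5.98 in Salt_Mannitol and 185 ± 19.2 in Salt_Mannitol_Heat. PYL8 made up 16.8% ± 0.590 of the sum in Control and 40.8% ± 1.79 in Heat. Subfamily I as a whole went from 49.2% ± 0.619 in Control to 70.4% ± 2.11 in Heat and 75.3% ± 3.00 in Salt_Mannitol_Heat. Subfamily II held 14.2% ± 2.18 in Control, 6.10% ± 1.55 in Salt_Mannitol and 4.25% ± 0.583 in Salt_Mannitol_Heat. Subfamily III held 36.6% ± 1.60 in Control and 20.1% ± 1.80 in Heat, and stayed between 34.4% and 36.6% in the watered groups at 22 °C. These sums and shares are descriptions without a test.

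**Figure D4:**
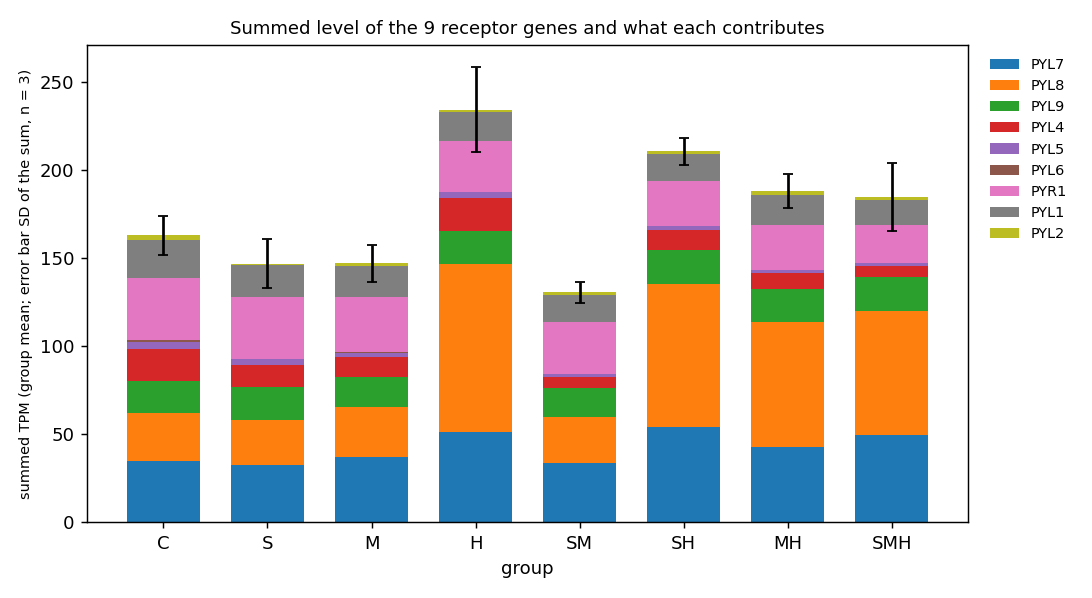
Mean summed TPM of the 9 receptor genes per group (vertical axis, from 0), stacked by gene, with error bars for the SD of the sum over 3 libraries. The sum is 163 TPM in Control and 234 TPM in Heat, and PYL8 takes 16.8% and 40.8% of it.

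In Salt_Mannitol against Control the called receptors and the called genes of their PP2C partners moved in opposite directions. Of 9 clade A PP2C genes 7 could be tested, and 6 rose and none fell in Salt_Mannitol against Control (median log2 change 0.95 over the tested members, -0.0033 over all tested genes), where 15.4% of all tested genes rose. Of the receptors 5 of 8 fell there, where 17.2% of all tested genes fell. The largest rises in the list were those of the ABA-induced PP2Cs HAI2 (2.35 ± 0.44, adjusted p = 0.00063) and HAI1 (2.24 ± 0.56, adjusted p = 0.0059). In Heat against Control 5 of 7 rose, with HAI1 at 2.43 ± 0.56 and HAI2 at 1.62 ± 0.44, and in Salt_Mannitol_Heat against Control 6 of 7, with HAI1 at 3.29 ± 0.56, where 31.7% and 33% of all tested genes rose. In Salt and Mannitol against Control 3 and 4 of 7 rose, against 4.54% and 12.2% of all tested genes. The median over the tested members was 1.08 in Heat and 1.76 in Salt_Mannitol_Heat, while that over all tested genes was -0.0024 and -0.0017.

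Set against the receptors, the 9 PP2C genes together held 0.786 ± 0.129 of the receptors' summed TPM in Control and 0.834 ± 0.0334 in Heat. The ratio was 1.39 ± 0.344 in Salt, 1.25 ± 0.452 in Mannitol and 1.94 ± 0.415 in Salt_Mannitol. At 35 °C it was 1.07 ± 0.0664 in Salt_Heat, 1.46 ± 0.382 in Mannitol_Heat and 1.99 ± 0.259 in Salt_Mannitol_Heat. Control and Heat libraries (0.657 to 0.915) thus overlapped, while all libraries of the combined solutes lay at or above 1.67 at either temperature. The lowest Mannitol library, at 0.931, was close to the highest Control library, at 0.915.

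**Figure D5:**
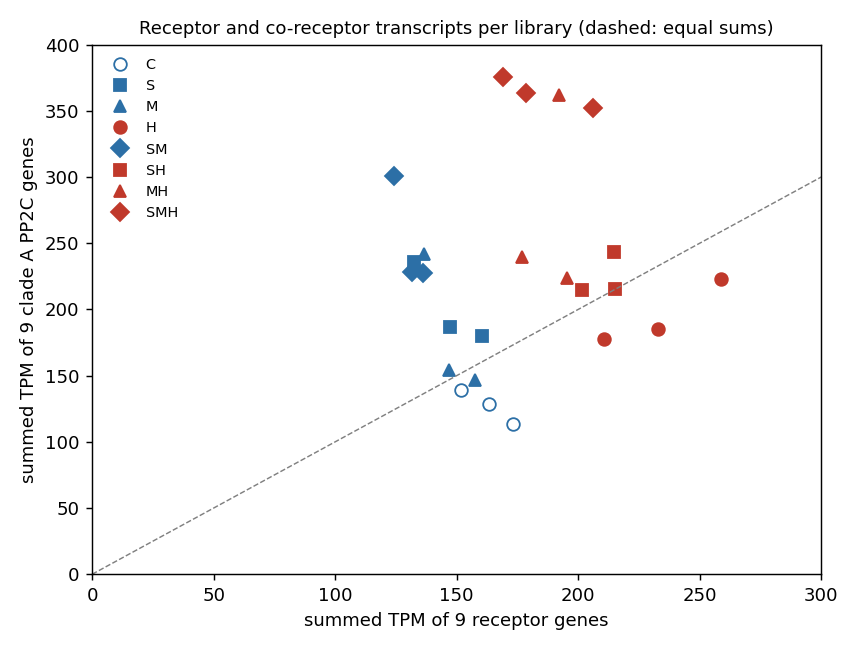
Summed TPM of 9 clade A PP2C genes (vertical axis) against summed TPM of the 9 receptor genes (horizontal axis), 1 point per library, with a dashed line at equal sums; blue is 22 °C, red is 35 °C and open circles are Control. Control and Heat libraries lie below the line, and all Salt_Mannitol and Salt_Mannitol_Heat libraries lie above it, at ratios of 1.67 or more.

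Downstream of the phosphatases, all 10 SnRK2 kinase genes were tested. In Heat against Control 5 rose and 1 fell, among them SNRK2.9 (1.20 ± 0.27) and SNRK2.3 (1.12 ± 0.07, adjusted p = 1.2e-11), an ABA-activated kinase, while SNRK2.1 fell by 0.70 ± 0.07. The 6 of 10 called are near the 62.6% of all tested genes that were called, of which 31.7% rose and 30.9% fell. In Salt_Mannitol 3 of 10 rose and none fell, where 15.4% of all tested genes rose, the highest being SNRK2.6 at 0.32 ± 0.11 (adjusted p = 0.027), the guard cell kinase also called OST1, which gave -0.10 ± 0.11 in Heat (adjusted p = 0.45). In Salt_Mannitol_Heat 7 rose and 1 fell, where 33% of all tested genes rose and 32.7% fell. The median over the 10 was 0.29 in Heat, 0.21 in Salt_Mannitol and 0.38 in Salt_Mannitol_Heat. Of the ABF and ABI transcription factors 5 of 7 were tested, and all 5 rose in Salt_Mannitol and in Salt_Mannitol_Heat, where ABI5 rose by 1.95 ± 0.31 and 2.21 ± 0.31 (medians over the tested members 0.61 and 1.21), against 15.4% and 33% of all tested genes that rose. In Heat 3 of 5 rose, ABF3 the most at 1.20 ± 0.21, with a median of 0.45, against 31.7% of all tested genes.

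Of 10 ABA-responsive target genes 8 rose in Salt_Mannitol against Control, where 15.4% of all tested genes rose, and 9 rose in Salt_Mannitol_Heat, where 33% did. In Heat 3 of 10 rose, a share near the 31.7% of all tested genes, and none fell in any of these comparisons. The median log2 change over the 10 was 2.03, 2.04 and 1.23. The protective proteins LEA7 (7.84 ± 1.36) and RD29B (5.81 ± 0.89, adjusted p = 0.00013) had the highest values in Salt_Mannitol. In Heat the called targets were the dehydrins COR47 (1.98 ± 0.35) and ERD10 (1.49 ± 0.33) and the transcription factor RD26 (1.20 ± 0.32), while RD29B gave 1.49 ± 1.16 and did not pass (adjusted p = 0.28).

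Genes of ABA synthesis and of ABA breakdown were both among the called ones. Of 5 tested synthesis genes, NCED3, the rate-limiting step of ABA synthesis under drought, rose by 1.53 ± 0.29 in Salt_Mannitol and by 1.19 ± 0.29 in Heat. ABA1, which makes the epoxycarotenoid precursors, fell by 1.21 ± 0.10 in Heat and gave 0.04 ± 0.10 in Salt_Mannitol. In all, 3 rose and 1 fell in Salt_Mannitol and 2 rose and 2 fell in Heat, where 32.6% and 62.6% of all tested genes were called. Of 5 breakdown and release genes 3 rose in Salt_Mannitol, against 15.4% of all tested genes, with the ABA hydroxylase genes CYP707A3 at 1.15 ± 0.28 and CYP707A2 at 1.11 ± 0.21, and 4 rose and 1 fell in Salt_Mannitol_Heat, where CYP707A2 gave 1.95 ± 0.21 and 65.7% of all tested genes were called. The medians in Salt_Mannitol and Heat were 0.36 and -0.15 for synthesis and 0.89 and 0.36 for breakdown.

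Genes that act on the receptor proteins form the last list. DDA1, which brings receptors such as PYL8 to an E3 ubiquitin ligase, rose by 0.56 ± 0.12 in Heat against Control (adjusted p = 0.00024). CAR9, a membrane protein of the family that recruits receptors to the plasma membrane, rose by 0.71 ± 0.09. FREE1 rose by 0.30 ± 0.07, while ALIX and VPS23A, which like it belong to the endosomal sorting pathway that carries receptors to the vacuole, gave -0.28 ± 0.06 and -0.22 ± 0.09, both called. In all, 3 of 6 tested genes rose and 2 fell in Heat, and 1 (ALIX, 0.18 ± 0.06) rose and none fell in Salt_Mannitol, against 62.6% and 32.6% of all tested genes that were called. The medians were 0.15 and 0.09.

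The genes whose log2 CPM followed each receptor most closely over the 24 libraries were named by Pearson r among 13437 or 13438 other genes with a mean of at least 5 TPM. PYL8 had the closest neighbours of the 8 tested receptors, AT1G30070 (r = 0.986) and RD28 (r = 0.984), an aquaporin of the plasma membrane. For PYR1 they were AT1G67950 (0.931) and AT1G04800 (0.914), for PYL7 AT1G27090 (0.913) and LCR69 (0.912), and for PYL4 AT1G29450 (0.896) and BZO2H3 (0.868), a bZIP transcription factor. PYL1 had MAP1D (0.884) and AT1G20810 (0.882), and PYL5 BCA4 (0.853), a carbonic anhydrase, and CHL-CPN10 (0.849), a chloroplast co-chaperonin. PYL9 (0.768, AT2G33510) and PYL2 (0.720, HCF153) had the most distant ones. Libraries of 1 group share a treatment, so r describes these 24 libraries only.

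In the authors' deposited table the fold changes are on the natural log scale, shown by a slope of 0.981 to 0.997 against the log ratio of mean TPM. In the authors' deposited table PYL8 was at 1.26 in Heat against Control with a q-value of 0.00010, and at 0.95 in Salt_Mannitol_Heat with 9.2e-05. PYL4 was at -1.12 in Salt_Mannitol with a q-value of 0.0044 in the authors' deposited table. Of 56 pairs of a tested receptor and a comparison with Control, 29 were called both here and in the authors' deposited table, 7 in the authors' deposited table alone and 2 here alone. PYL9 had q-values of 0.019, 0.016, 0.016 and 0.024 in the authors' deposited table for Heat, Salt_Heat, Mannitol_Heat and Salt_Mannitol_Heat, at natural log changes of 0.022 to 0.059, and passed in none of them here. PYL2 had q-values of 0.0498 in Salt_Heat and 0.023 in Salt_Mannitol_Heat in the authors' deposited table, where the values here were -0.66 ± 0.31 in each and did not pass (adjusted p = 0.067 and 0.066). PYL5 in Heat against Control had a q-value of 0.022 in the authors' deposited table, while its value here was -0.50 ± 0.28 and did not pass (adjusted p = 0.13, and 0.048 with those groups fitted alone). PYL1 and PYL4 in Mannitol against Control had q-values of 0.074 and 0.071 in the authors' deposited table and were called here.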

How the data were processed

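RNA of rosettes was prepared as Illumina TruSeq libraries and sequenced as 100-base paired reads, 12 libraries per lane, and the lane of each library is not given. The submitters' processing notes name kallisto 0.45.1 and sleuth 0.30.0, while the CASAVA version and the transcript index are not given in the sources used here. The authors deposited, per the file headers, an estimated count and a TPM value for every gene and library. Of the deposited estimated counts above 0, 94.6% to 95.2% per library are whole numbers times 1 constant, within a tolerance of 0.01. This constant (0.797 to 1.25), taken as the commonest value above 0, was divided out of all counts. The results were rounded, also where they were not near a whole number. The deposited TPM values (a signal scale, per the file headers from kallisto) sum to 0.920 to 1.12 M per library and serve as levels. The authors' deposited comparisons hold a natural log fold change and a q-value against Control.

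Counts were fitted in R 4.3.3 with edgeR 4.0.16 (filterByExpr, TMM, robust quasi-likelihood F test) over all 24 libraries with 1 term per group. Calls needed a p-value under 0.05 after Benjamini-Hochberg adjustment over 20027 tested genes. Interaction terms and group differences were taken from the same fit. Intervals of 95% are the log2 change with its SE under a normal approximation, unadjusted. DESeq2 1.42.0, limma 3.58.1 on log2(TPM + 1), no filter, library totals alone, a replicate block, a 1.5-fold minimum, fits of single comparisons and leaving out each library were alternatives. Leaving out the 4 libraries with over 0.1% organelle reads was added after the data were seen. On simulated counts of Heat against Control over 20027 genes, 67, 67 and 66 genes were changed 1.5-, 2- and 4-fold. Of these, 61.2%, 89.6% and 98.5% were called, with 12 false calls. The changed genes were drawn from those over a floor of mean CPM, which PYL2 and PYL5 did not reach. Far more genes were called in the real comparison (62.6%), so these rates cannot be taken as those for the receptors. Library totals alone shift the median of all genes by 0.11 (Salt, Salt_Mannitol), 0.12 (Mannitol_Heat) and 0.17 (Salt_Mannitol_Heat) on the log2 scale.

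Every receptor is described. Other genes are named by 2 rules: the 2 genes with the highest Pearson r to a receptor, and the called genes of a pathway list with the largest change up and down, up to 2 per list and comparison. SNRK2.6 in Heat, ABA1 in Salt_Mannitol, RD29B and RD26 in Heat and FREE1 were named after their values were seen. The receptors, lists and tests were chosen with earlier results of these data known. Sequences and positions come from RefSeq on TAIR10.1, where 27445 identifiers matched. Protein sequences were not analysed here. The upstream window of PYR1 is not reported here.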

Additional observations from a re-analysis of the deposited data

How the results depend on the processing

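Of the settings tried on single receptors, 2847 kept direction and side of the threshold, 74 lost a call, 31 gained one and 0 reversed. The count of called receptors moved by more than 1.5 times in these cases. DESeq2 called 1 in Salt_Heat against Heat and 1 for the interaction of mannitol with heat, both 0 in edgeR, and the replicate block also called 1 for that interaction. Library totals alone called 1 in Mannitol against Control, 3 in Salt_Mannitol against Control and 1 for the mannitol interaction. A 1.5-fold minimum left 1 in Mannitol, 2 in Heat, 3 in Salt_Mannitol and 3 in Mannitol_Heat against Control, 1 in Salt_Mannitol_Heat against Salt_Mannitol and 2 in Salt_Mannitol_Heat against Heat. Fitting only the groups compared gave 2 in Salt against Control, 1 in Salt_Heat against Heat, 1 in Mannitol_Heat against Heat and 0 in Salt_Mannitol against Mannitol. Without the 4 libraries of high organelle share the counts were 0 in Salt against Control, 1 in Salt_Mannitol against Salt, 0 in Salt_Mannitol against Mannitol and 1 in Salt_Mannitol_Heat against Mannitol_Heat. By CPM in place of TPM, 3 of the 8 groups kept their place in the order of PYL9. A 1.5-fold minimum can only remove calls. The cause of the other moves was not tested.

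Leaving out 1 library at a time gave 0 to 2 receptors in Salt, 0 to 2 in Mannitol, 3 to 5 in Heat, 3 to 5 in Salt_Mannitol, 5 to 6 in Salt_Heat, 5 to 6 in Mannitol_Heat and 6 to 7 in Salt_Mannitol_Heat, each against Control. The heat comparisons after salt, mannitol and both gave 3 to 4, 2 to 3 and 3 to 4. Against Heat the ranges were 1 to 3 in Mannitol_Heat and 3 to 4 in Salt_Mannitol_Heat. Between watered groups they were 1 to 4 (Salt_Mannitol against Salt), 0 to 1 (Salt_Mannitol against Mannitol) and 0 to 1 (Salt_Mannitol_Heat against Salt_Heat). The mannitol interaction gave 0 to 1, and the remaining comparisons and interactions gave 0 throughout.

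To look for pairing, the mean log2 CPM of its group was subtracted from each library, gene by gene. These deviations correlated between -0.334 and 0.282 for same-numbered replicates of different groups, over 0.1 in 21 of 84 pairs. For differently numbered ones they correlated between -0.318 and 0.347, over 0.1 in 30 of 168 pairs. By mean correlation of the deviations, 14 of 24 libraries were closest to their own number among the 3 numbers. These values do not settle whether equal numbers mark pairs. The main fit did not take them as pairs, and with the replicate block the mannitol interaction gained 1 receptor (PYL8). Depth limits PYL2 (9 to 33 reads per library), PYL5 (8 to 60) and PYL6, which had at most 11.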
